A study of Mus musculus with 6 samples.

Results

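The genes that carry glucose into the cell, break it down to pyruvate and lactate, carry lactate out, steer pyruvate toward or away from the mitochondrion and store glucose as glycogen were followed through 6 mouse tumors. The set has 32 gene symbols, taken by name from the deposited table, and these match 33 of its 21899 rows because Aldoa is listed under 2 gene identifiers. Of the 33 rows, 32 had a mean of at least 1 FPKM (fragments on a gene, scaled to its exon length and to the depth of the sample) and were tested among 10853 genes. The remaining row, Pdk2, had a mean of 0.968 FPKM and is given by its values. Tumors were grown from LLC-luc cells, a luciferase-carrying line of Lewis lung carcinoma, injected under the skin at the left chest of male C57BL/6 mice. The Laser group had the laser alone, the PC-La group had phycocyanin (PC), a light-absorbing pigment protein of cyanobacteria used as a photosensitizer, injected into the tumor before the laser, and the SePC-La group had selenium-enriched phycocyanin (SePC) before the laser. By the study's methods, the Laser group was given an equal volume of normal saline in place of a photosensitizer. Each group held 2 samples, and all 3 groups shared the laser, so no tumor without light entered. The labels put the injections 5 days apart, with a 620 nm laser applied for 10 min at 4 h after the injection, and the study's methods give another wavelength and interval. RNA came from unsorted tumor tissue, in which fewer cells of a type and less RNA per cell cannot be told apart. Which part of a tumor was taken is not given in the study's methods.

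Recovered depth lay between 14447792 and 17649489 reads per sample. The lung epithelium markers were almost absent, as 6 of 7 stayed under 1 FPKM in all samples and 2 were at 0 throughout, whereas the keratin and vimentin genes Krt8, Krt18 and Vim summed to 958 to 1276 FPKM. The Laser pair was the least alike (correlation of log2 values 0.947, against 0.992 for PC-La and 0.972 for SePC-La). In Laser 2 the 12 skeletal muscle markers summed to 177 FPKM, against 1.77 to 25.8 FPKM in the other samples. The neutrophil markers summed to 338 and 443 FPKM in SePC-La and to 39.9 to 152 FPKM elsewhere, and the erythroid markers to 613 and 933 FPKM in SePC-La and 13.6 to 362 FPKM elsewhere. In SePC-La most of the neutrophil sum was S100a9 (226.5 and 299.8 FPKM). Cxcr2 was at 4.84 and 5.13 FPKM in SePC-La and 4.36 FPKM in Laser 1. The macrophage markers summed to 452 and 792 FPKM in SePC-La and to 700.5 to 977 FPKM elsewhere. The fibroblast markers had their lowest sums in SePC-La 1 (122 FPKM) and Laser 2 (288 FPKM) and lay between 635 and 1717 FPKM in the others. The part of these cell markers in the results that follow was not tested. Values given without a library leave out everything about that sample, not only its markers. The neutrophil and erythroid sums differed with the group itself and cannot be told apart from the treatment.

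Glycolysis converts glucose to pyruvate in the cytosol. Glucose enters through transporters of the GLUT family, is trapped by hexokinase and is committed to breakdown by phosphofructokinase, after which a shared series of abundant enzymes makes pyruvate. Lactate dehydrogenase A turns pyruvate into lactate, which leaves through monocarboxylate transporters, while pyruvate dehydrogenase sends it into the mitochondrion unless its kinases (Pdk) switch it off. Many of these genes are known targets of the hypoxia-inducible factor HIF and of Myc, and tumors often keep them high even with oxygen present.

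Most members of the pathway had higher levels in the SePC-La tumors than in either other group, although none passed a test adjusted over all genes tested in limma with the values as deposited and all 6 samples. Against Laser, 25 of the 32 tested members were higher and 7 lower, and 14 passed an unadjusted p under 0.05 in limma, all of them higher. Over all genes tested, 4.9% passed as higher and 7.24% as lower. The median log2 fold change of the members was 0.38, and that of all genes tested was -0.06. Against PC-La, 26 members were higher and 6 lower, 20 passed as higher and 2 as lower, and the shares over all genes were 9.91% and 14.4%. The median there was 0.54 for the members and -0.07 for all genes. The 14 members that passed against Laser were Slc2a1, Slc2a3, Pfkl, Pfkp, Pfkfb3, Aldoa, Tpi1, Gapdh, Pgk1, Pgam1, Eno1, Pkm, Ldha and Slc16a3, and each of them passed against PC-La too, where 3.49% of all genes passed as higher in both. The 2 comparisons share the SePC-La samples.

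Groups that did not overlap were counted as well. Both SePC-La samples lay above both Laser samples for 18 members and below them for 1, where all genes gave 15% and 25.6%. Both lay above both PC-La samples for 24 members and below them for 4, where all genes gave 26% and 39.5%. Both SePC-La samples were above all 4 other samples for 17 members, against 11.5% of all genes, and below all 4 for Pfkm alone among the tested members, against 19.9%. Of the 10853 genes tested, 0% had a Benjamini-Hochberg adjusted p under 0.05 in limma in each comparison, with all 6 samples, values as deposited and the filter at 1 FPKM. Against PC-La, other settings of that fit gave 3 genes (minimum mean of 5 FPKM), 6 (median-ratio scaling) and 8 (quantile normalization), and 0 of these were members. The smallest adjusted p of a member was 0.376 against Laser and 0.0763, for Slc16a3, against PC-La. With only the 4 compared samples in the fit, 9 members had an adjusted p under 0.05 against PC-La (637 genes in all), namely Slc16a3, Slc2a1, Eno1, Pgk1, Pygl, Pfkfb3, Ldha, Aldoa and Pkm, with values from 0.026 to 0.0495.

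The study's screen is an absolute log2 fold change over 1 with an unadjusted p under 0.05, which the study applied to DESeq results. Applied here to the limma fit, it kept Slc2a1 against Laser, with 0.544% of all genes kept as higher and 0.138% as lower. Against PC-La it kept Slc2a1, Pgk1 and Slc16a3, where the shares were 1.18% and 1.8%. Pfkp and Pygl against PC-La (ratios of mean FPKM 2.13 and 2.61) and Slc16a3 against Laser (2.01) were not kept on the scale with the pseudocount. The balance of all genes moved with the scaling. The share of higher genes among those at p under 0.05 was 40.4% against Laser and became 63.9% after median-ratio scaling and 53.3% after quantile normalization. Against PC-La it was 40.8%, 58.2% and 52.1%. Of the members, 15 higher and 0 lower passed against Laser after median-ratio scaling and 10 and 0 after quantile normalization. Against PC-La the counts were 23 and 1, and 18 and 1.

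**Figure D1:**
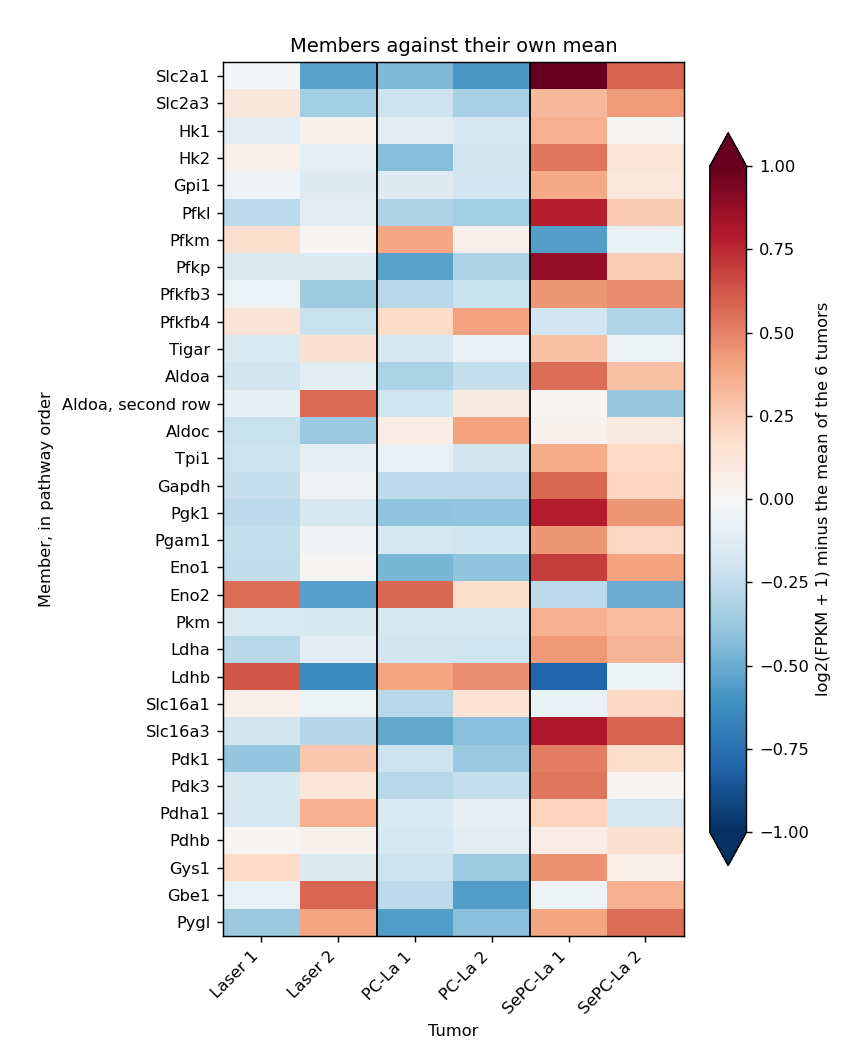
Each row is a tested member in pathway order and each column a tumor, and the color gives log2(FPKM + 1) minus the member's mean over the 6 tumors (red above, blue below). The 2 SePC-La columns are mostly red, with member medians of 0.39 and 0.20, and the other 4 columns have medians from -0.21 to -0.10.

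The members also separated the samples one by one. The median of the members' deviations from their own means on the log2 scale was -0.15 and -0.10 with the laser alone, -0.21 and -0.20 after PC, and 0.39 and 0.20 after SePC (samples 1 and 2). Of the 32 members, 26 in SePC-La 1 and 25 in SePC-La 2 stood above their own mean, against 5 to 11 in each of the other samples. SePC-La 1 was the higher of the SePC-La pair for 23 members, while it was the higher for 44.4% of all genes tested.

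Promoter sequence is shown for the 3 members that passed the study's screen against PC-La and for the member window richest in the letters ACGTG (Ldha). As a contrast, it is shown for Pfkfb4, which was lower. RefSeq windows on GRCm38.p6 run from 250 bases before to 50 bases after a start, and 31 of the 32 symbols had one, with 45 windows in all. Slc2a3 had none. The letters ACGTG, the A form of the core of the HIF element, were searched on both strands and are in capitals below. On the other strand they read CACGT, overlapping the E-box CACGTG that Myc binds. The G form of the core, GCGTG, was searched too and is not marked. The stretches end at the RefSeq start or near the edge of an annotated exon.
Slc2a1 (chr4:119108495-119108713, plus strand): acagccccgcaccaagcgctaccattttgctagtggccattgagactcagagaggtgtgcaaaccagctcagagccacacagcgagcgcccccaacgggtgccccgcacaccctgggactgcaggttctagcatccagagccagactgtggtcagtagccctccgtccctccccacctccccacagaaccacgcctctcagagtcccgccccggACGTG
Pgk1 (chrX:106186850-106187099, plus strand): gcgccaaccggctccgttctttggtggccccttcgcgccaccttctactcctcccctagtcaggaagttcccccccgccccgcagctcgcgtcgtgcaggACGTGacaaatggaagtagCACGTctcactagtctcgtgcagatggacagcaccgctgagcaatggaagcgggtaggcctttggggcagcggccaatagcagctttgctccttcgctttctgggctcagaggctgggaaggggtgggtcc
Slc16a3 (chr11:120948817-120949057, plus strand): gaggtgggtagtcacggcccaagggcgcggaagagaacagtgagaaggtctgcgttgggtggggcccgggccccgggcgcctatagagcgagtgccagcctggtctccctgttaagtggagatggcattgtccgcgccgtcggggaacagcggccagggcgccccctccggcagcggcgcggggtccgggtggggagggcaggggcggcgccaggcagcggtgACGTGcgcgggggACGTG
Ldha (chr7:46845554-46845803, plus strand): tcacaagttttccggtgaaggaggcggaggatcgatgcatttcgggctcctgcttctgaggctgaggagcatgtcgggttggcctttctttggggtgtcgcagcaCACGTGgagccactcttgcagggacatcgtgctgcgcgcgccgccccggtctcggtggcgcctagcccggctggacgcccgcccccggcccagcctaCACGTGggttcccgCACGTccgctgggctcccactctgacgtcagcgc
Pfkfb4 (chr9:108991652-108991777, plus strand): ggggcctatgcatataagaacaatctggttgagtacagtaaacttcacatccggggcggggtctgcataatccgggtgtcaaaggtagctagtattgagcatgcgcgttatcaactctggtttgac
Slc2a1 had 1 match, Pgk1 and Slc16a3 had 2 each, Ldha had 5, of which 4 lie in 2 E-boxes that match on both strands, and Pfkfb4 had none in the whole window. ACGTG stood in 21 of the 45 member windows (46.7%) and in 19.6% of all 32851 windows. By gene, 18 of 31 members (58.1%) had it, against 21.8% of all genes. All windows were counted whether or not their gene was expressed in these tumors, and base content was not matched. Windows of a gene can overlap, and the same Aldoa match was counted in more than 1 window. What lies behind the difference in shares was not tested. The 19 members with a window that passed as higher against PC-La had it in 12 cases (63.2%), and the other 12 members in 6 (50%). CACGTG stood in 11.1% of member windows and 7.15% of all windows. The G form GCGTG stood in 53.3% of member windows and 32.4% of all windows. By gene, 61.3% of members had it, against 35.2% of all genes. Of the members that passed as higher against PC-La 57.9% had it, and of the other members 66.7%. Eno1, Pfkl, Pfkp and Tpi1, which passed as higher in SePC-La against both groups, had no ACGTG in these windows. Nor had Gpi1, Gys1 and Pdk1, which passed as higher against PC-La alone. Pfkm, which was lower than in PC-La, had it.

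Glucose entry had the largest fitted log2 fold changes among the tested members, on a scale that shrinks the changes of low genes. Slc2a1, the basal glucose transporter GLUT1 (chromosome 4, 119108711 to 119137983 on GRCm38), was measured at 69.2 and 48.2 FPKM with the laser alone, 51.4 and 46.6 after PC, and 141 and 106 after SePC. Both SePC-La samples were above every other sample. The log2 fold change was 1.07 ± 0.22 (SE) against Laser (unadjusted p = 0.00221, adjusted p = 0.376) and 1.3 ± 0.22 against PC-La (unadjusted p = 0.000755, adjusted p = 0.122). Slc2a3, the high-affinity transporter GLUT3, was far lower at 2.18 and 1.32 FPKM with the laser alone, 1.54 and 1.35 after PC, and 2.67 and 2.93 after SePC. It passed against PC-La (log2 fold change 0.64, unadjusted p = 0.0174) but not without PC-La 1, PC-La 2 or SePC-La 2, and against Laser its p of 0.0498 was lost in 9 of 16 alternatives. Slc2a1 made up 96.9% to 98.1% of the summed FPKM of both transporters in every sample.

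The steps from hexokinase to the hexose phosphates moved less than Slc2a1. Hk2, the hexokinase often raised in tumors, had 27.7 and 24.9 FPKM with the laser alone, 19.6 and 23.5 after PC, and 39.3 and 29.2 after SePC. It was higher in SePC-La than in PC-La (log2 fold change 0.64, unadjusted p = 0.0106) and did not pass against Laser (0.36, unadjusted p = 0.0892), although its groups did not overlap. Hk1, the broadly expressed form, passed in neither comparison (0.22 and 0.33), with SePC-La 2 at 19.8 FPKM and Laser 2 at 20.2 FPKM. Gpi1, which turns glucose phosphate into fructose phosphate, had 95.5 and 89.6 FPKM with the laser alone, 89.8 and 85.7 after PC, and 128 and 106 after SePC. Its p was 0.0517 against Laser and 0.0242 against PC-La. Against PC-La, the call of Gpi1 was lost without PC-La 1, PC-La 2 or SePC-La 1 and with quantile normalization (0.28), and that of Hk2 without PC-La 1 or SePC-La 1.

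Phosphofructokinase, the committing step, differed by form. Pfkl, the liver-type subunit, was at 33 and 36.7 FPKM with the laser alone, 31.9 and 31.1 after PC, and 69.0 and 47.7 after SePC. Pfkp, the platelet-type subunit, was at 10.6 and 10.7, 7.88 and 9.36, and 22.6 and 14.2 FPKM in the same order. Both were higher in both SePC-La samples, with log2 fold changes of 0.71 (Pfkl) and 0.70 (Pfkp) against Laser and 0.84 and 0.98 against PC-La. The muscle-type subunit Pfkm went the other way, at 15.8 and 14.2 FPKM with the laser alone, 18.7 and 14.6 after PC, and 9.30 and 13.4 after SePC. Pfkm was lower in SePC-La than in PC-La (log2 fold change -0.53 ± 0.20, unadjusted p = 0.0382) and did not pass against Laser (-0.39, unadjusted p = 0.0956). Its share of the summed FPKM of the 3 subunits was 23.1% to 32% in the Laser and PC-La samples against 9.22% and 17.8% after SePC, and the share of Pfkl was 54.6% to 59.5% in the former and 68.4% and 63.3% in the latter. The call of Pfkm against PC-La was lost without PC-La 1, without SePC-La 1 (-0.28) and with median-ratio scaling, and the call of Pfkp against Laser without Laser 1 or SePC-La 1 (0.38).

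The enzymes that make or remove the fructose bisphosphate that activates phosphofructokinase also split. Pfkfb3, whose kinase activity makes this activator, had 6.23 and 4.89 FPKM with the laser alone, 5.20 and 5.44 after PC, and 9.22 and 9.43 after SePC, with log2 fold changes of 0.66 ± 0.15 (unadjusted p = 0.00339) and 0.71 ± 0.15 (unadjusted p = 0.00238). Pfkfb4, a related enzyme with both kinase and phosphatase activity, had 3.86 and 2.82 FPKM with the laser alone, 4.08 and 4.89 after PC, and 2.90 and 2.62 after SePC. Pfkfb4 was lower in SePC-La than in PC-La (log2 fold change -0.54 ± 0.18, unadjusted p = 0.0194), and SePC-La and Laser overlapped. That call was lost without PC-La 2 or SePC-La 2 and with quantile normalization. Of the summed FPKM of the 4 PFKFB genes, Pfkfb3 took 40.7% to 49.1% in the Laser and PC-La samples and 66.7% and 67.4% in SePC-La. The 2 other genes of this family are not members, and of these Pfkfb2 was lower in SePC-La than in PC-La (-0.67, unadjusted p = 0.0259). Tigar, a phosphatase that removes the activator, was at 3.67 and 4.77, 3.60 and 3.96, and 5.37 and 4.04 FPKM in the 3 groups and passed in no comparison.

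**Figure D2:**
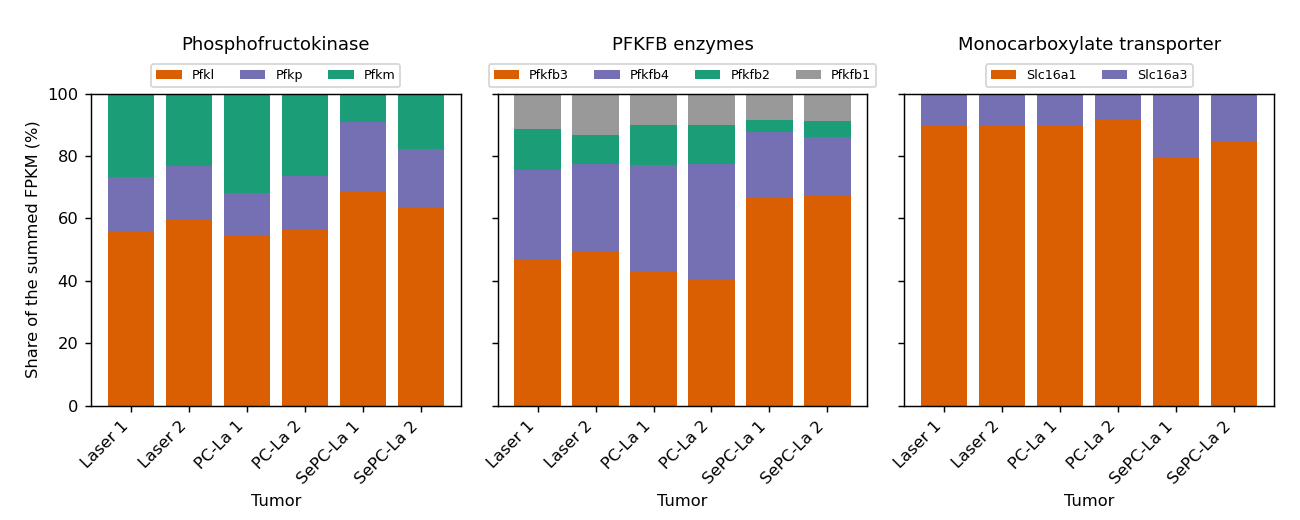
Stacked bars give the share (percent) of each form in the summed FPKM of phosphofructokinase, of the 4 PFKFB genes and of the lactate transporters Slc16a1 and Slc16a3, for each tumor. In both SePC-La tumors Pfkm and Pfkfb4 take smaller shares and Pfkl, Pfkfb3 and Slc16a3 larger ones than in the other 4.

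From aldolase to lactate, every main enzyme was higher in SePC-La. The 8 genes Aldoa, Tpi1, Gapdh, Pgk1, Pgam1, Eno1, Pkm and Ldha summed to 2219 and 2433 FPKM with the laser alone, 2176 and 2172 after PC, and 3765 and 3255 after SePC. This is 0.764% to 0.820% of all FPKM of a sample in the first 2 groups and 1.24% and 1.05% in SePC-La. The mean sum was 1.51 times that of Laser and 1.61 times that of PC-La. All 8 passed in both comparisons with the values as deposited and had no overlap between the groups. Quantile normalization lowered their log2 fold changes against Laser, to 0.13 for Tpi1, 0.15 for Pkm, 0.21 for Pgam1, 0.28 for Ldha, 0.32 for Aldoa, 0.39 for Eno1, 0.41 for Gapdh and 0.55 for Pgk1, and the calls of Tpi1, Pkm, Pgam1 and Gapdh were lost. Against PC-La it ended the calls of Tpi1 (0.25) and Pkm (0.17). Of the 345 genes that averaged 100 FPKM or more, 20.9% passed as higher against Laser and 32.8% against PC-La. These were larger shares than the 4.9% and 9.91% of all genes tested. The 345 genes include the 8 named here except Gapdh, and lower calls among them were not counted.

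Pgk1, the first ATP-forming step (chromosome X, 106187100 to 106203699), had the largest difference of the 8. It was at 331 and 356 FPKM with the laser alone, 300 and 301 after PC, and 686 and 540 after SePC, and the log2 fold change was 0.82 ± 0.15 against Laser (unadjusted p = 0.0014) and 1.01 ± 0.15 against PC-La (unadjusted p = 0.000443). Eno1, the main enolase, followed with 337 and 402, 290 and 301, and 646 and 528 FPKM, and log2 fold changes of 0.66 and 0.98. Aldoa, the main aldolase, was at 213 and 224, 194 and 205, and 358 and 297 FPKM (0.57 and 0.71). SePC-La 1 exceeded SePC-La 2 in each of these 3 genes.

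Gapdh, the dehydrogenase that is often used as a reference gene, was itself higher. Its levels were 81.0 and 93.3 FPKM with the laser alone, 79.2 and 79.5 after PC, and 143 and 111 after SePC, with log2 fold changes of 0.53 ± 0.16 (unadjusted p = 0.0153) and 0.66 ± 0.16 (unadjusted p = 0.0056). Tpi1 (254 and 277, 281 and 260, 382 and 339 FPKM) and Pgam1 (213 and 245, 224 and 219, 343 and 290 FPKM) were higher too, Tpi1 by 0.44 against Laser and 0.41 against PC-La on the log2 scale and Pgam1 by 0.47 and 0.51. The calls of Gapdh and Pgam1 against Laser were lost without Laser 1 and without SePC-La 1, and that of Tpi1 without SePC-La 1. Against PC-La, the calls of Tpi1 and Pgam1 were lost without PC-La 1, PC-La 2 or SePC-La 1.

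The last steps to lactate were higher as well. Pkm, pyruvate kinase, was at 424 and 421 FPKM with the laser alone, 417 and 419 after PC, and 605 and 585 after SePC. Ldha, the lactate dehydrogenase that favors lactate, was at 367 and 414, 392 and 388, and 603 and 565 FPKM. The log2 fold changes were 0.49 ± 0.12 (unadjusted p = 0.005) and 0.51 ± 0.12 (unadjusted p = 0.0043) for Pkm and 0.58 ± 0.13 (unadjusted p = 0.00353) and 0.58 ± 0.13 (unadjusted p = 0.00351) for Ldha. Quantile normalization cut the values of Pkm to 0.15 and 0.17, both without a call, and those of Ldha to 0.28 and 0.26, both still at p under 0.05. The table does not separate the 2 splice forms of Pkm.

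The minor forms of these steps gave no calls in the SePC-La comparisons. Ldhb, the form that favors pyruvate, was at 2.59 and 0.505 FPKM with the laser alone, 2.08 and 2.21 after PC, and 0.353 and 1.28 after SePC, and made at most 0.701% of the sum with Ldha. Eno2, the neuronal enolase, was at 4.62 and 1.63, 4.69 and 3.29, and 2.18 and 1.70 FPKM. Neither passed, with log2 fold changes against PC-La of -0.84 ± 0.45 (Ldhb, unadjusted p = 0.112) and -0.75 ± 0.37 (Eno2, unadjusted p = 0.0868). The 2 lowest samples of Ldhb, SePC-La 1 and Laser 2, were those with the lowest fibroblast marker sums, and the 3 lowest of Eno2 were both SePC-La samples and Laser 2. Aldoc, the brain-type aldolase, was at 0.741 and 0.573 FPKM with the laser alone, 1.14 and 1.68 after PC, and 1.08 and 1.16 after SePC, with the SePC-La pair above the Laser pair (log2 fold change 0.36, unadjusted p = 0.124). The other Aldoa row, ENSMUSG00000114515, a gene annotated just upstream of Aldoa on the same strand, was at 1.72 to 4.25 FPKM and passed in no comparison. Gapdh, Eno1, Pgk1 and Ldha have near-identical copies elsewhere in the mouse genome, and how the counting shared reads between copies is not given in the sources used here, so their levels are uncertain to that extent.

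**Figure D3:**
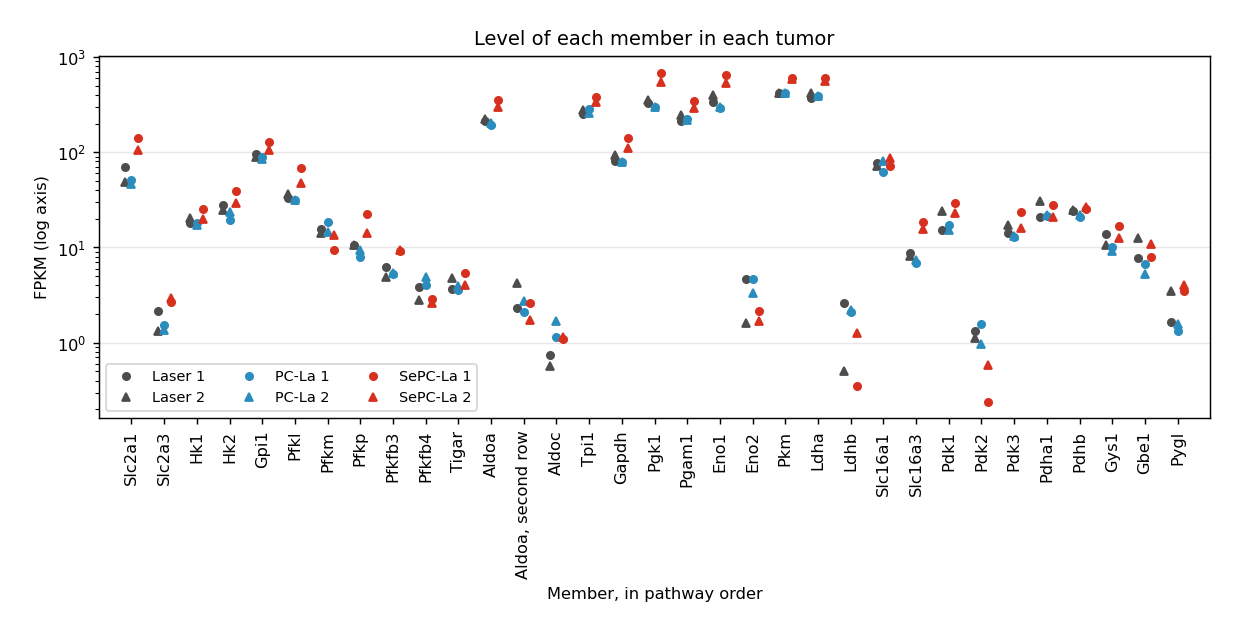
Points give the FPKM of each member row on a log axis, in pathway order, with color for the group and shape for the sample. The 8 abundant enzymes from Aldoa to Ldha lie near 100 FPKM or above in all tumors, with both SePC-La points on top, while Eno2, Ldhb, Aldoc and Pdk2 stay under 5 FPKM.

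Lactate export gave the smallest p of the pathway. Slc16a3, the exporter MCT4 (chromosome 11, 120948480 to 120960868), was at 8.85 and 8.20 FPKM with the laser alone, 6.85 and 7.39 after PC, and 18.6 and 15.8 after SePC. The log2 fold change was 0.93 ± 0.14 against Laser (unadjusted p = 0.00037, adjusted p = 0.376) and 1.16 ± 0.14 against PC-La (unadjusted p = 0.000101, adjusted p = 0.0763), and it passed the unadjusted threshold in 17 of 17 alternatives in both. Slc16a1, the bidirectional carrier MCT1, was at 77.1 and 72.0, 61.3 and 81.8, and 70.9 and 86.1 FPKM, with overlapping groups and log2 fold changes of 0.07 ± 0.18 and 0.14 ± 0.18. The share of Slc16a3 in the sum of both was 8.28% to 10.3% in the Laser and PC-La samples and 20.8% and 15.5% in SePC-La. Bsg, the partner protein that brings both carriers to the membrane and is no member, was at 253 and 259, 259 and 243, and 380 and 342 FPKM and was higher in SePC-La than in both groups (0.49, unadjusted p = 0.0065, and 0.52, unadjusted p = 0.0051).

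At the branch to the mitochondrion, kinases and enzyme differed. Pdk1, a kinase that switches pyruvate dehydrogenase off, was at 15.1 and 24.3 FPKM with the laser alone, 17.3 and 15.3 after PC, and 29 and 22.8 after SePC. Pdk3 was at 14.1 and 17.3, 12.9 and 13.2, and 23.3 and 16 FPKM. Both were higher in SePC-La than in PC-La (0.63, unadjusted p = 0.0349, and 0.53, unadjusted p = 0.033), and neither passed against Laser, where Laser 2 lay between the SePC-La samples. Both calls against PC-La were lost without PC-La 1, PC-La 2 or SePC-La 1. Pdk2, another of these kinases, was low throughout, at 1.33 and 1.11 FPKM with the laser alone, 1.58 and 0.972 after PC, and 0.241 and 0.579 after SePC. With no filter on low values its log2 fold change was -0.66 ± 0.20 against Laser (unadjusted p = 0.0208) and -0.69 ± 0.20 against PC-La (unadjusted p = 0.0181), and both SePC-La samples lay below the other 4. The pyruvate dehydrogenase subunits Pdha1 (20.9 and 30.5, 21.2 and 22.1, 27.8 and 20.9 FPKM) and Pdhb (24 and 24.6, 21.1 and 22.1, 25.2 and 26.7 FPKM) passed in no comparison.

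The 3 glycogen members are given last. Gys1, glycogen synthase, was at 13.9 and 10.7 FPKM with the laser alone, 10.2 and 9.13 after PC, and 16.8 and 12.6 after SePC, and was higher than in PC-La (0.54, unadjusted p = 0.0256) but overlapped Laser. The call was lost without PC-La 1, PC-La 2 or SePC-La 1. Pygl, the phosphorylase that releases glucose phosphate from glycogen, was at 1.66 and 3.53, 1.34 and 1.57, and 3.51 and 4.07 FPKM, with a log2 fold change of 0.97 ± 0.26 against PC-La (unadjusted p = 0.00942) and 0.46 against Laser (unadjusted p = 0.126). The call of Pygl against PC-La was lost without SePC-La 2. Laser 2 had about as much Pygl as SePC-La 1. The neutrophil marker sum was lowest in Laser 2. Of these markers, S100a8, S100a9, Csf3r and Cxcr2 were lowest in Laser 2 (9.39, 14.1, 2.84 and 0.744 FPKM), and Mmp8 was highest there (7.85 FPKM). A part of neutrophils in the level of Pygl was not tested. Gbe1, the branching enzyme, was at 7.70 and 12.7, 6.64 and 5.23, and 7.89 and 10.8 FPKM and passed in neither SePC-La comparison (-0.10 and 0.57).

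**Figure D4:**
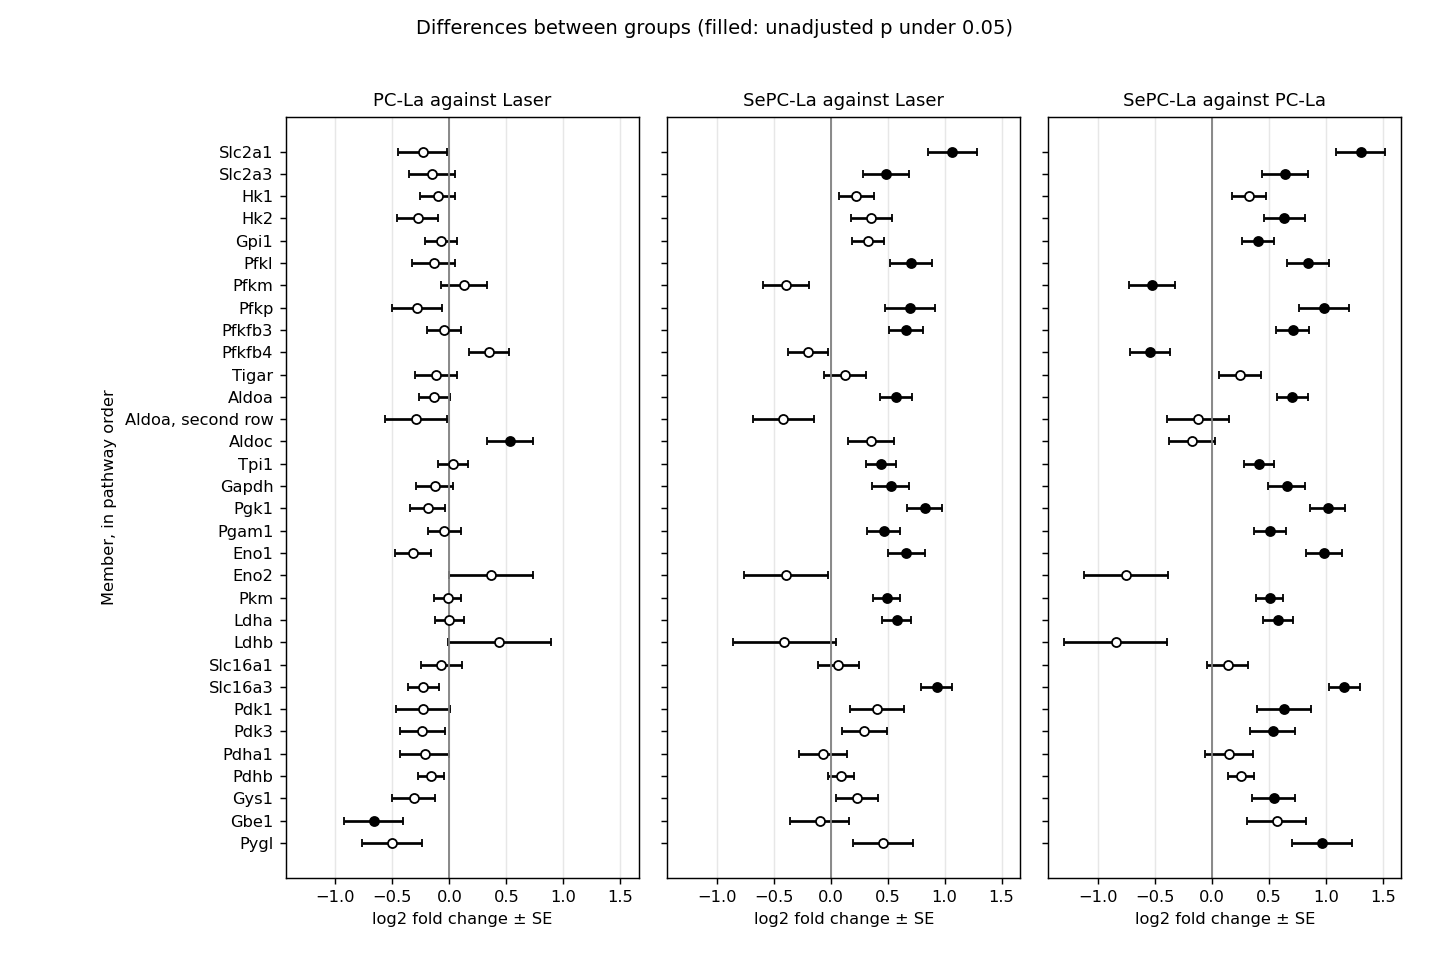
Points give the limma log2 fold change of each tested member in pathway order and bars its standard error, in 1 panel per comparison, with filled points at an unadjusted p under 0.05. Filled points number 2 for PC-La against Laser, 14 for SePC-La against Laser and 22 for SePC-La against PC-La.

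Few members passed between PC-La and Laser, though most were lower in PC-La. Of the 32 members 6 were higher and 26 lower, with a median log2 fold change of -0.14 against -0.0006 for all genes. Only Aldoc passed as higher (0.53 ± 0.20, unadjusted p = 0.0367) and Gbe1 as lower (-0.66 ± 0.26, unadjusted p = 0.0405), where 3.38% and 2.4% of all genes passed. No member met the study's screen, which kept 0.866% of all genes as higher and 0.424% as lower. The groups did not overlap for 2 members higher and 15 lower in PC-La, where all genes gave 20.4% and 21.6%. Both calls were lost without Laser 2, without either PC-La sample and without either SePC-La sample, and 14 members changed sign under at least 1 alternative. Without Laser 1, 4 members passed as higher and 6 as lower, where 14.4% and 10.4% of all genes passed.

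Counts with a compared library left out were set beside the shares of all genes in the same fit. Against Laser, 15 members passed as higher and 2 as lower without Laser 2, the sample with muscle markers (7.24% and 12.3% of all genes), and 11 and 1 without Laser 1 (7.41% and 8.78%). Without SePC-La 1 the counts were 9 and 0 (3.59% and 4.04%), and without SePC-La 2 they were 17 and 1 (3.81% and 7.85%). Against PC-La they were 13 and 1 without SePC-La 1 (5.23% and 6.31%) and 19 and 1 without SePC-La 2 (8.62% and 14.9%). They were 12 and 1 without PC-La 1 (3.59% and 4.48%) and 13 and 1 without PC-La 2 (4.42% and 5.06%).

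Other genes around the pathway were counted from lists. Of 13 tested other isozymes and pathway genes (28 listed), 3 passed as higher in SePC-La than in Laser (Hk3, Bsg and Bpgm) and none as lower, with a median log2 fold change of -0.14. Against PC-La 2 passed as higher and 3 as lower. Hk3, a hexokinase prominent in myeloid cells, was at 8.79 and 9.94, 7.47 and 9.93, and 15.4 and 14.6 FPKM, beside the neutrophil marker sums given above. Bpgm, which makes the bisphosphoglycerate of red cells, was at 4.29 and 3.81, 5.60 and 5.40, and 4.88 and 6.48 FPKM, beside the erythroid sums. Of the 17 genes of the tricarboxylic acid (TCA) cycle, 1 passed as higher against Laser and 4 against PC-La, none passed as lower, and the medians were 0.11 and 0.18. Of 7 genes of the pentose phosphate pathway, 0 passed against Laser and 3 as higher against PC-La. Of 7 tested further parts of the pyruvate dehydrogenase system, 1 passed as lower against Laser and 0 against PC-La. Of 13 tested further genes of glycogen and gluconeogenesis, 2 passed as higher and 1 as lower against Laser and 3 and 2 against PC-La.

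HIF targets outside glycolysis had a larger median than the members. Of 14 tested, 10 passed as higher and none as lower in both comparisons, with medians of 0.79 against Laser and 0.80 against PC-La, and none passed between PC-La and Laser. Among 13 tested regulators of glycolysis, 3 passed as higher and 0 as lower against Laser, and 5 and 2 against PC-La. Myc, Egln3 and Egln1 passed as higher in both comparisons, and Trp53 and Mxi1 against PC-La alone. Arnt (-0.43, unadjusted p = 0.0172) and Hif1an (-0.37, unadjusted p = 0.0434) passed as lower against PC-La. These genes and Hif1a were named after their values were seen. Myc was at 185 and 256 FPKM with the laser alone, 122 and 133 after PC, and 448 and 295 after SePC (0.74, unadjusted p = 0.0214, and 1.51, unadjusted p = 0.000654). Between PC-La and Laser, Myc was the only regulator that passed in limma, as lower in PC-La (-0.77 ± 0.24, unadjusted p = 0.0183). The difference from PC-La thus includes a lower level after PC. Egln3, an oxygen sensor that is itself a HIF target and stands in both lists, was at 65.0 and 65.8, 67.7 and 63.8, and 120 and 112 FPKM. The mRNA of Hif1a, which is controlled mainly as a protein, was at 43.0 and 40.1, 41.9 and 45.3, and 45.2 and 52.5 FPKM and passed in no comparison.

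**Figure D5:**
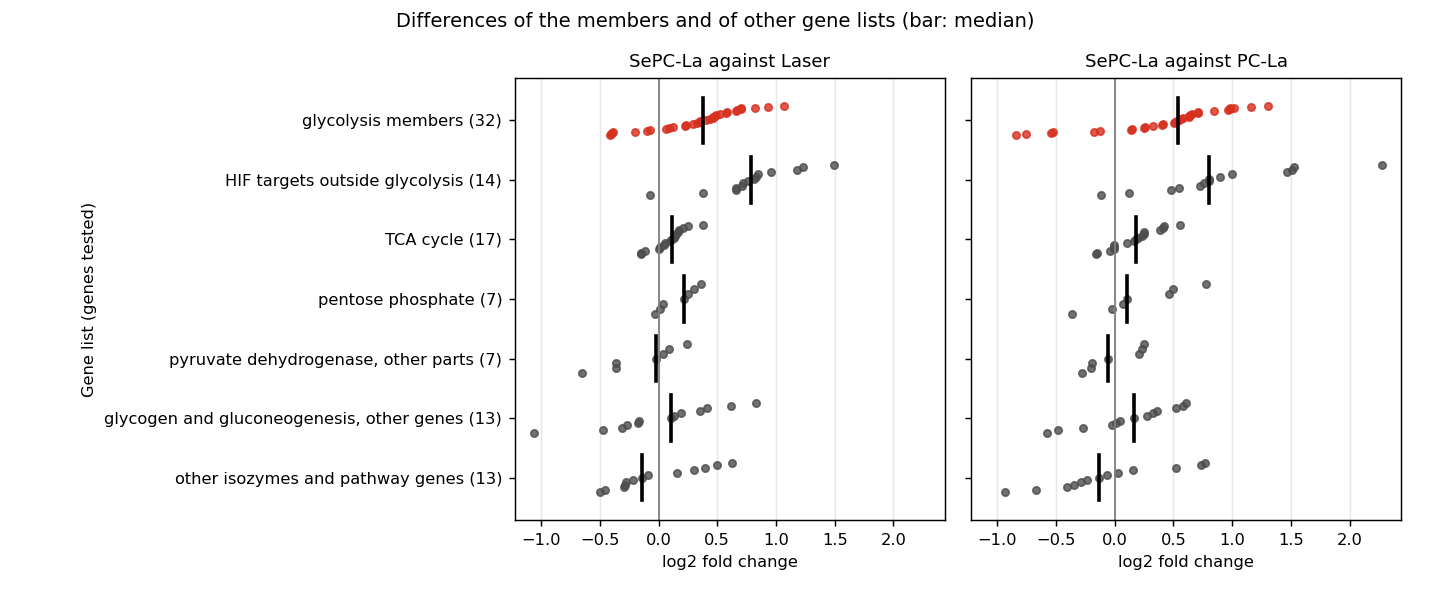
Points give log2 fold changes of single genes (horizontal axis) in SePC-La against Laser and against PC-La for the 32 tested members (red) and 6 other lists (grey), and bars mark medians. The HIF targets outside glycolysis have medians of 0.79 and 0.80 and the members of 0.38 and 0.54, while the other lists have medians from -0.14 to 0.22.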

How the data were processed

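Total RNA of 6 tumors, 2 in each of 3 groups taken from the sample titles, was sequenced. The labels do not say whether the 2 samples of a group came from separate mice, so p-values measure the spread between these samples, which may be technical. Expression values were deposited by the authors as FPKM, in 1 table with genes in rows and samples in columns. The submitters' processing notes name HISAT2 2.0.5, HTSeq 0.9.1, DESeq 1.30.0 and the build mm9. The unit is not named in the file and was settled from the values, which gave whole reads (within 0.02 read, in all 6 samples for 97.8% of expressed genes) with the exon lengths of GENCODE M21. Coordinates are therefore those of GENCODE M21 on GRCm38.

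Groups were compared on the log2(FPKM + 1) scale using limma (version 3.58.1, R version 4.3.3) for 10853 genes that averaged 1 FPKM or more, with a mean per group, all 6 samples in 1 fit, a trend and robust estimation (3 residual degrees of freedom), and Benjamini-Hochberg adjustment over all genes tested. Fold changes of low genes are understated by the pseudocount of 1. With 2 samples against 2, no exact permutation test of a single gene can reach a p under 0.05. The members and the gene lists were chosen with earlier results of these data known. Every member is reported. A gene that is no member is named from the lists only where it is an isozyme or partner of a member or a cell marker. The named regulators of glycolysis are the exception, as they were named after their values were seen. The 3 main comparisons share samples. Promoter windows are from RefSeq on GRCm38.p6. Alternatives were another pseudocount (0.1), another filter (none, or a mean of 5 FPKM), another scaling (median-ratio or quantile), the fit without the trend or without robust estimation, a fit of the 4 compared samples, a replicate block and each sample left out. A voom fit (limma) to the recovered reads and a block with crossed numbers were added after the data were seen. The fit was tested on simulated data. Tables used pandas 2.3.3 and NumPy 2.4.6 and plots used matplotlib 3.10.9, under Python 3.11.15.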

Additional observations from a re-analysis of the deposited data

How the results depend on the processing

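With 2 samples per group the calls are unadjusted and small in number, and the median of the members kept its sign in every alternative run. The 38 calls of members were recomputed 603 times, of which 532 stayed at p under 0.05 and 71 did not, none with another sign. Counting members without a call too, 14, 6 and 4 changed sign under at least 1 alternative for PC-La against Laser, SePC-La against Laser and SePC-La against PC-La. For SePC-La against Laser, the members at p under 0.05 (14) ranged from 9 to 18 with a sample left out. Those past the study's screen (1) numbered 2 with median-ratio scaling or voom, 0 with quantile normalization and 0 to 3 with a sample left out. The members' median log2 fold change (0.38) became 0.46 with median-ratio scaling and 0.28 with quantile normalization, and 0.29 to 0.49 with a sample left out. For SePC-La against PC-La, the members at p under 0.05 (22) ranged from 13 to 25 with a sample left out. Those past the screen (3) numbered 5 with a pseudocount of 0.1 or voom, 6 with median-ratio scaling and 3 to 6 with a sample left out. The median (0.54) became 0.64 with median-ratio scaling and 0.41 to 0.61 with a sample left out. For PC-La against Laser, the members at p under 0.05 (2) numbered 1 without a filter, 1 with a minimum mean of 5 FPKM, 0 in a fit of the 4 compared samples and 0 to 10 with a sample left out, where 10 was without Laser 1. Those past the screen (0) numbered 1 with voom and 0 to 1 with a sample left out. The median (-0.14) was -0.17 to -0.11 with a sample left out.

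The labels give shared replicate numbers but do not say what they pair, and the deviations of same-numbered samples correlated at 0.0862, -0.428 and -0.177. With the replicate block, 1 member passed for PC-La against Laser, 13 for SePC-La against Laser and 20 for SePC-La against PC-La. Calls lost under the block were Aldoc in the first comparison, Slc2a3 in the second and Pfkm, Pdk1 and Pdk3 in the third. With the SePC-La numbers crossed, chosen after seeing the data, the counts were 1, 16 and 23. Leaving out a sample leaves its group with 1, which is then assumed to vary like the other groups. The cause of these shifts was not tested.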
